A study of Rattus norvegicus with 18 samples.

Results

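The peroxisome proliferator-activated receptors (PPARs), the retinoid X receptors (RXRs) with which they bind DNA, and the PGC-1 coactivators were followed in rat primary hepatocytes, the main cells of the liver, treated with EMD, a dual agonist of PPARα and PPARγ. The 8 genes were chosen by name: Ppara, Ppard, Pparg, Rxra, Rxrb, Rxrg, Ppargc1a and Ppargc1b. They were all that was chosen of the 14217 genes that the array annotation names with 1 symbol, and they were read through 12 of its 20826 probe sets, each a group of short probes for 1 transcript. Ppard and Rxrg had 2 probe sets each, Ppargc1a had 3 and the other 5 genes had 1. The brightest of these by its mean over the 18 arrays stands for the gene, and the others are given beside it.

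Hepatocytes came from livers of Wistar rats and were allowed to attach for 24 h. All groups then received the same culture medium with insulin and hydrocortisone, and with it 30 µM EMD, 100 µM EMD or the vehicle alone, 0.1% dimethyl sulfoxide (DMSO), for 24 or 72 h. Each of the 6 groups held 3 arrays, 18 in all. Per the study's methods the cells of each animal received each treatment and the 3 arrays of a group are biological replicates. Neither the methods nor the labels say which array came from which animal. The arrays held log2 expression estimates between 2.388 and 14.77, with array medians from 5.042 to 5.11. Correlations between 2 arrays ran from 0.9612 to 0.9962.

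PPARs are nuclear receptors that bind fatty acids and related drugs, and each acts as a heterodimer with an RXR on response elements made of AGGTCA half-sites. PPARα is the main form in liver, where it turns on fatty acid oxidation, PPARγ is the master regulator of fat cells, and PPARδ is found in most tissues. The PGC-1 coactivators join such receptors and raise the transcription of genes for mitochondria, fatty acid oxidation and, for PGC-1α in the fasted liver, glucose synthesis.

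The transcript start regions of Rxrg, Ppargc1a and Ppargc1b are shown, from RefSeq (rat build GRCr8), 5′ to 3′ on the strand of the gene. Each runs from 250 bases before to 50 bases after the start. Capitals mark the only motif found in them, TGACGTCA, the full cAMP response element through which glucagon signalling is known to reach Ppargc1a.
Rxrg, chr13:82276237-82276536, plus strand: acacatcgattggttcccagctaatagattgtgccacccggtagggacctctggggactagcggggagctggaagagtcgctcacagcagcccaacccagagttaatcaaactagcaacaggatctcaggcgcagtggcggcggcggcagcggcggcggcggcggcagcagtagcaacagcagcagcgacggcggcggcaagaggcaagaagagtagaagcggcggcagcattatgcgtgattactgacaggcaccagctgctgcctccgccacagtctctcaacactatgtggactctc
Ppargc1a, chr14:63634058-63634357, plus strand: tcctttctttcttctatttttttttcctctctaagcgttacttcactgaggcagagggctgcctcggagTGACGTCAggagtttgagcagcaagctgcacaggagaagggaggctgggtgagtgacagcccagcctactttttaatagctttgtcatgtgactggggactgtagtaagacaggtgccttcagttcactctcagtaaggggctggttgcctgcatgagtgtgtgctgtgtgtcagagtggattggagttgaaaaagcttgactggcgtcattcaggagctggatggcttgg
Ppargc1b, chr18:57131417-57131716, minus strand: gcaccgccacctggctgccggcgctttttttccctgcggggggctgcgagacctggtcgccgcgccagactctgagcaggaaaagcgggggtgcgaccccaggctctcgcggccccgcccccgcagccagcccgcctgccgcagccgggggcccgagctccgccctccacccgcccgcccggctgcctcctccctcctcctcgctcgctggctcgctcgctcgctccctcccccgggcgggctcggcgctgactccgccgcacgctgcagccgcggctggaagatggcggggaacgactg

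RefSeq start regions were matched for 7 of the 8 genes, with 8 windows because Pparg has a pair of starts. Both strands of the 300 bases were searched for the half-site AGGTCA, for a pair of such half-sites in the same direction with 1 base between them, and for TGACGTCA. The pair contains the half-site, and a match is a description of the letters alone. The half-site was in 0 of the 8 windows and in 16.2% of the 33469 rat start regions of the same length, and the pair was in 0 windows and in 0.0538% of all. TGACGTCA was in the Ppargc1a window alone, at bases -181 to -174 from the start, and in 1.83% of all start regions.

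With EMD, the RXRγ gene Rxrg rose at both doses and both times, by 2.42-fold to 5.02-fold. Of the coactivators, Ppargc1b rose at 72 h with both doses, by 1.67-fold and 1.82-fold, and Ppargc1a fell 1.78-fold at 72 h with 100 µM. Pparg rose 1.65-fold at 72 h with 100 µM, close to the threshold, and Ppara, Ppard, Rxra and Rxrb passed the test in none of the comparisons with DMSO. Changes are given as log2 differences of group means ± SE from limma's moderated test, fitted to all 18 arrays with 3 arrays a group. P-values were adjusted by Benjamini-Hochberg over 31042 probe sets, and "rose" and "fell" are used at an adjusted p under 0.05. At each time the comparisons of 30 and 100 µM share the same DMSO arrays. The fit does not pair arrays by replicate number, and the last section gives the calls that changed when it did.

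**Figure D1:**
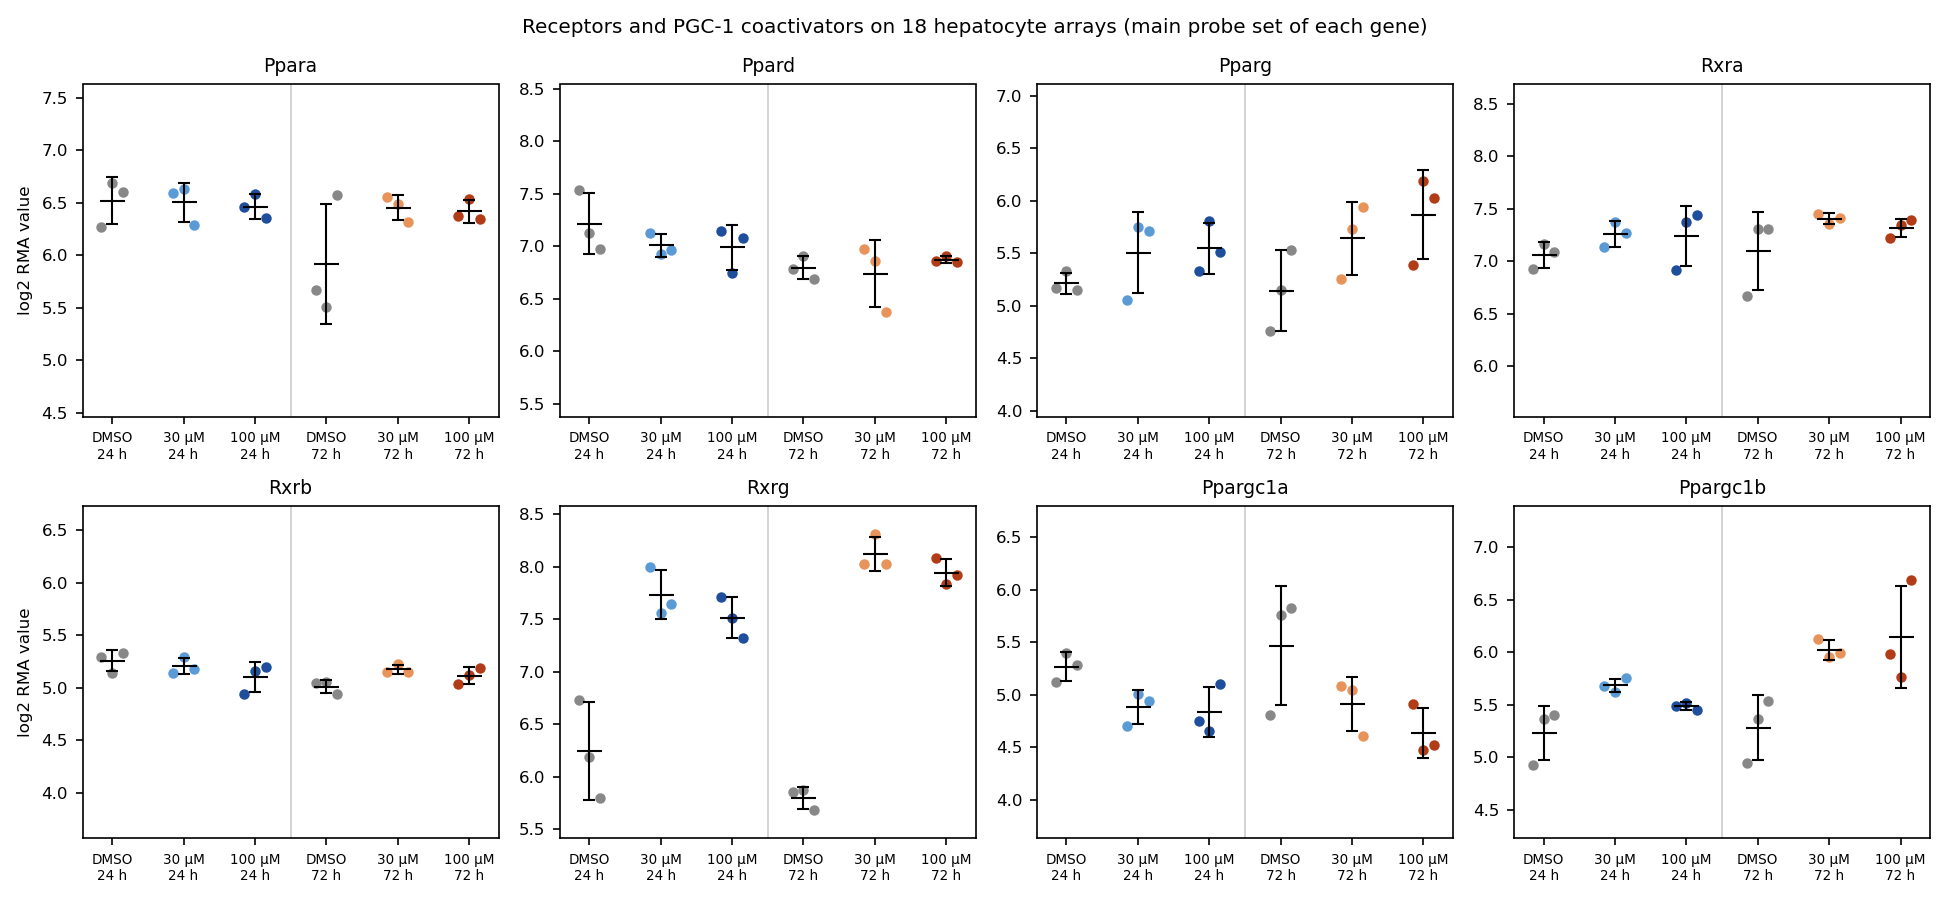
Log2 expression values (RMA, y axis) of the 8 genes on each of 18 arrays, by treatment and time (x axis). Points are arrays in replicate order, bars are the mean ± SD of 3 arrays, and every panel spans the same log2 distance. The Rxrg values of EMD cultures, 7.32 to 8.31, all lie above those of DMSO cultures, 5.68 to 6.73.

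Among all probe sets, 5.36% passed the test with 30 µM at 24 h (3.35% higher, 2.01% lower), and of the 8 genes 1 did. With 100 µM at 24 h the share was 6.01% (3.06% higher, 2.95% lower), and again 1 of the 8 genes, Rxrg, passed. At 72 h 17.1% passed with 30 µM (7.88% higher, 9.22% lower) and 2 of the 8 genes rose. With 100 µM at 72 h 17.1% passed as well (7.42% higher, 9.68% lower), and 3 of the 8 genes rose and 1 fell. The median change of the 8 genes was 0.09 and 0.06 at 24 h with the lower and higher dose, and 0.40 and 0.36 at 72 h, where the median over all probe sets lay between -0.03 and 0.02. With both doses and times pooled against DMSO, 4 of the 8 genes passed the test, against 21.5% of all probe sets.

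**Figure D2:**
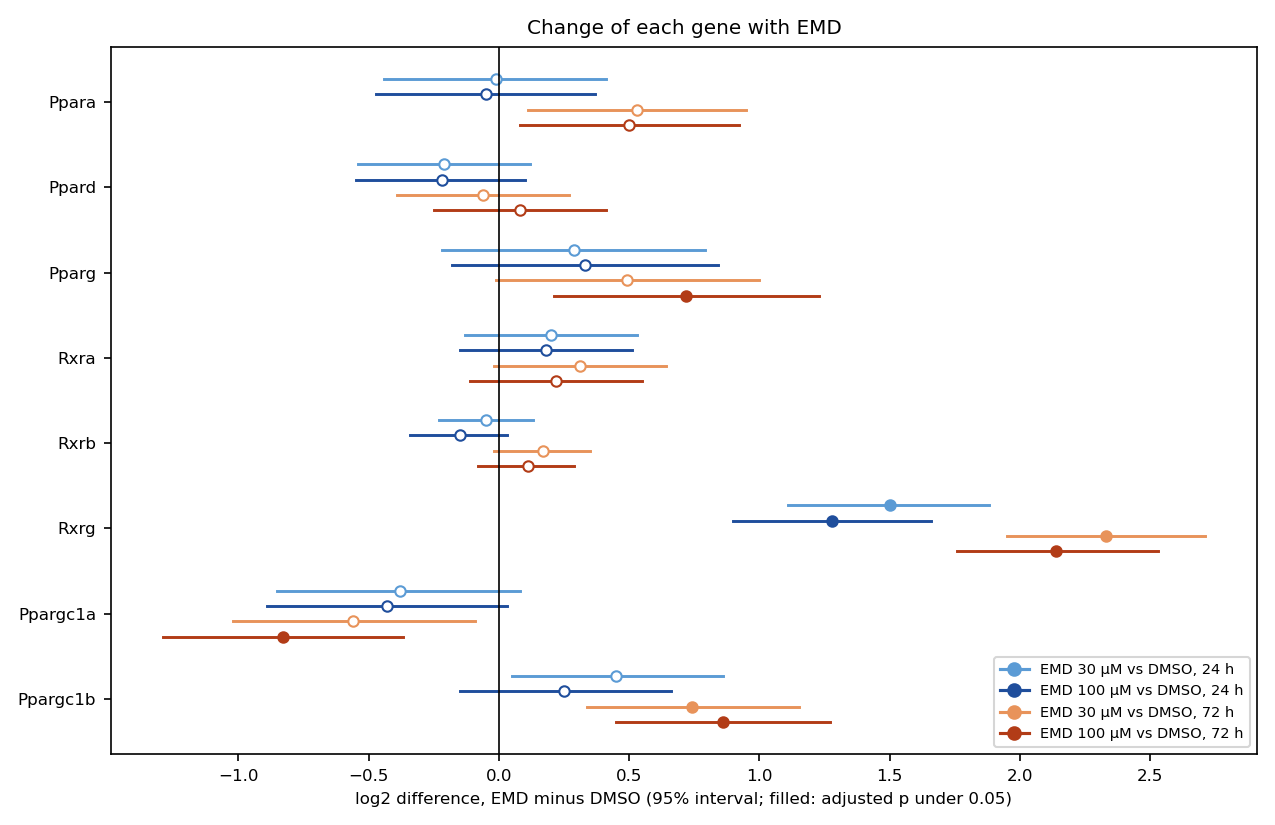
Log2 difference between EMD and DMSO (x axis) for each gene (y axis) in the 4 comparisons, as the estimate with its 95% interval from limma. Filled points have an adjusted p under 0.05, and these are the 4 values of Rxrg, both 72 h values of Ppargc1b, and the values of Pparg and Ppargc1a with 100 µM at 72 h.

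Ppara encodes PPARα, the receptor through which EMD and the fibrate drugs act on liver fatty acid oxidation. In probe set 1387278_at its log2 values at 24 h were 6.27, 6.69 and 6.60 with DMSO, 6.59, 6.63 and 6.29 with 30 µM, and 6.46, 6.58 and 6.35 with 100 µM. The 3 groups at 24 h overlapped, and the differences from DMSO were -0.01 ± 0.20 and -0.05 ± 0.20. At 72 h the values were 5.67, 5.51 and 6.57 with DMSO, 6.55, 6.49 and 6.32 with 30 µM, and 6.37, 6.54 and 6.34 with 100 µM. DMSO replicates 1 and 2 lay below every other array of the 18, while DMSO replicate 3 lay just above the highest EMD array at 72 h, 6.55. The differences at 72 h were 0.53 ± 0.20 (adjusted p = 0.08, limma) with 30 µM and 0.50 ± 0.20 (adjusted p = 0.10, limma) with 100 µM, so neither passed the test. Without DMSO replicate 3 at 72 h they were 0.86 (adjusted p = 0.00034, limma) and 0.82 (adjusted p = 0.00057, limma).

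Ppara also fell in DMSO cultures between 24 and 72 h, by 0.60 ± 0.20 on the log2 scale (adjusted p = 0.041, limma), although the groups overlapped through the same array. That call was lost without DMSO replicate 1 or 2 at 72 h (adjusted p = 0.14 and 0.20, limma) and without DMSO replicate 2 or 3 at 24 h (adjusted p = 0.13 and 0.11, limma). In EMD cultures the differences over time were -0.05 ± 0.20 with either dose. Whether the response to EMD differed between the times was tested by an interaction term, which gave 0.55 ± 0.28 for both doses (adjusted p = 0.44 and 0.47, limma). Without DMSO replicate 3 at 72 h the difference over both doses and times was 0.40 (adjusted p = 0.0015, limma), from 0.24 ± 0.12, and both interactions were 0.87 (adjusted p = 0.027 with 30 µM and 0.036 with 100 µM, limma).

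Ppard encodes PPARδ. Its values in probe set 1374914_at were 7.54, 7.13 and 6.98 with DMSO at 24 h and 6.79, 6.91 and 6.69 with DMSO at 72 h. Over the 12 EMD arrays they ran from 6.38 to 7.15, and they overlapped the DMSO values at both times. The 4 differences from DMSO lay between -0.22 and 0.08, with 95% intervals that reached from -0.55 to 0.41 in all. In DMSO cultures the values at 72 h lay below those at 24 h on every array, with a difference of -0.42 ± 0.16 (adjusted p = 0.063, limma). Without DMSO replicate 3 at 24 h it was -0.54 (adjusted p = 0.038, limma). The other probe set, 1387684_at, lay between 3.25 and 3.73, under the median of its array on all 18, and passed in none of the 4 comparisons with DMSO. Over time in DMSO cultures its difference was -0.27 ± 0.09 (adjusted p = 0.053, limma), again without overlap. The mean of both probe sets gave -0.34 (adjusted p = 0.018, limma).

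Pparg encodes PPARγ, the other target of EMD, which is sparse in normal hepatocytes and gains in fatty liver. In probe set 1369179_a_at the values at 24 h were 5.17, 5.33 and 5.15 with DMSO, 5.06, 5.75 and 5.71 with 30 µM, and 5.33, 5.81 and 5.51 with 100 µM. At 72 h they were 4.76, 5.15 and 5.53 with DMSO, 5.26, 5.73 and 5.94 with 30 µM, and 5.39, 6.19 and 6.03 with 100 µM. Replicate 1 was the lowest array in every EMD group and in DMSO at 72 h, and the treated and vehicle values overlapped at both times. At 72 h each EMD array lay above the DMSO array of the same number, and at 24 h all but replicate 1 with 30 µM did. The differences were 0.29, 0.33, 0.49 and 0.72 ± 0.24 in the order 30 and 100 µM at 24 h and 30 and 100 µM at 72 h, and the last passed the test (adjusted p = 0.049, limma). That call was lost without DMSO replicate 1 or 2 at 72 h (0.53 and 0.72, adjusted p = 0.21 and 0.11, limma) or EMD replicate 2 or 3 (0.56 and 0.64, adjusted p = 0.20 and 0.16, limma). With replicate number added to the fit, the difference with 30 µM at 72 h passed as well (0.49 ± 0.14, adjusted p = 0.019, limma). Over both doses and times Pparg rose by 0.46 ± 0.15 (adjusted p = 0.034, limma). That value was 0.36 without DMSO replicate 1 at 72 h (adjusted p = 0.12, limma), and 11 of the 18 arrays, each left out in turn, ended the call.

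The RXRs are the shared partners of PPARs and of many other receptors, and RXRα is the main form in liver. Rxra values in probe set 1369101_at ran from 6.67 to 7.31 in DMSO cultures and from 6.91 to 7.45 in EMD cultures. At 72 h they were 6.67, 7.31 and 7.31 with DMSO and 7.45, 7.35 and 7.41 with 30 µM, which did not overlap, but the difference of 0.31 ± 0.16 did not pass the test (adjusted p = 0.22, limma). The other 3 differences were 0.20, 0.18 and 0.22, each ± 0.16. Taken over both doses and times the difference was 0.23 ± 0.10, with a 95% interval from 0.02 to 0.43 and an adjusted p of 0.11 (limma). Without replicate 1 of 100 µM at 24 h it was 0.27 (adjusted p = 0.036, limma).

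Rxrb encodes RXRβ, found in most tissues, and it moved least of the 8 genes, with all 18 values of probe set 1389051_at between 4.94 and 5.33. The differences from DMSO were -0.05 and -0.15 at 24 h and 0.17 and 0.11 at 72 h, each ± 0.09, and none passed the test. In DMSO cultures the values were 5.29, 5.14 and 5.33 at 24 h and 5.04, 5.05 and 4.94 at 72 h. Each array at 72 h lay below each array at 24 h, a fall of 0.25 ± 0.09 on the log2 scale (adjusted p = 0.049, limma), which was lost without any 1 of 5 of the 6 arrays, all but DMSO replicate 2 at 24 h (adjusted p = 0.077 to 0.15, limma).

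Rxrg encodes RXRγ, best known from skeletal muscle and brain, and it changed most of the 8 genes. In probe set 1370981_at its values at 24 h were 6.73, 6.19 and 5.80 with DMSO, 8.0, 7.56 and 7.64 with 30 µM, and 7.71, 7.51 and 7.32 with 100 µM. At 72 h they were 5.85, 5.87 and 5.68 with DMSO, 8.03, 8.31 and 8.03 with 30 µM, and 8.08, 7.83 and 7.92 with 100 µM. All 12 EMD arrays lay above all 6 DMSO arrays. Rxrg rose by 1.50 ± 0.18 with 30 µM (adjusted p = 3.9e-05, limma) and by 1.28 ± 0.18 with 100 µM (adjusted p = 0.00021, limma) at 24 h. At 72 h the rises were 2.33 ± 0.18 (adjusted p = 1.2e-07, limma) and 2.14 ± 0.18 (adjusted p = 4.1e-07, limma), or 5.02-fold and 4.42-fold. These 4 calls held without any 1 array.

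In order of the Rxrg mean, DMSO at 72 h (5.80 ± 0.10, SD, n = 3) and DMSO at 24 h (6.24 ± 0.46) came first and overlapped. Their difference of -0.44 ± 0.18 did not pass the test (adjusted p = 0.091, limma), and it was -0.66 without DMSO replicate 3 at 24 h (adjusted p = 0.015, limma). They were followed by 100 µM at 24 h (7.52 ± 0.19), 30 µM at 24 h (7.73 ± 0.23), 100 µM at 72 h (7.94 ± 0.13) and 30 µM at 72 h (8.12 ± 0.16). Each of these EMD groups overlapped its neighbour in the order. The order had 1 gap, between the vehicle and the EMD groups. The response was larger at 72 h by 0.83 ± 0.26 with 30 µM and 0.87 ± 0.26 with 100 µM. The 95% intervals ran from 0.29 to 1.37 and from 0.33 to 1.41, but neither interaction passed over all probe sets (adjusted p = 0.15 for both, limma). That fit does not pair arrays. With replicate number added to it, both interactions passed (adjusted p = 0.036 and 0.04, limma).

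The other Rxrg probe set, 1392271_at, lay between 3.59 and 4.28, under the array median on all 18 arrays, and did not show these rises. Its differences were 0.03, 0.13, 0.16 and 0.35, each ± 0.14, and none passed the test (adjusted p = 0.098 or more, limma). The rise of Rxrg therefore rests on 1 of its probe sets. Of 12 skeletal muscle markers, none rose with EMD at either dose or time, and 1, 1, 2 and 3 fell in the 4 comparisons with DMSO. Among those that fell was Actn3, a muscle actinin, by 0.83 to 1.12. Of all probe sets 3.35%, 3.06%, 7.88% and 7.42% were called higher in these comparisons, and 2.01%, 2.95%, 9.22% and 9.68% lower. With 12 markers, an absence of rises cannot be told apart from those shares. Of the 12 markers, 6 lay under the array median on every array, among them muscle creatine kinase Ckm and myoglobin Mb, while Myh1, Acta1 and Tnni2 lay above it on all 18.

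**Figure D3:**
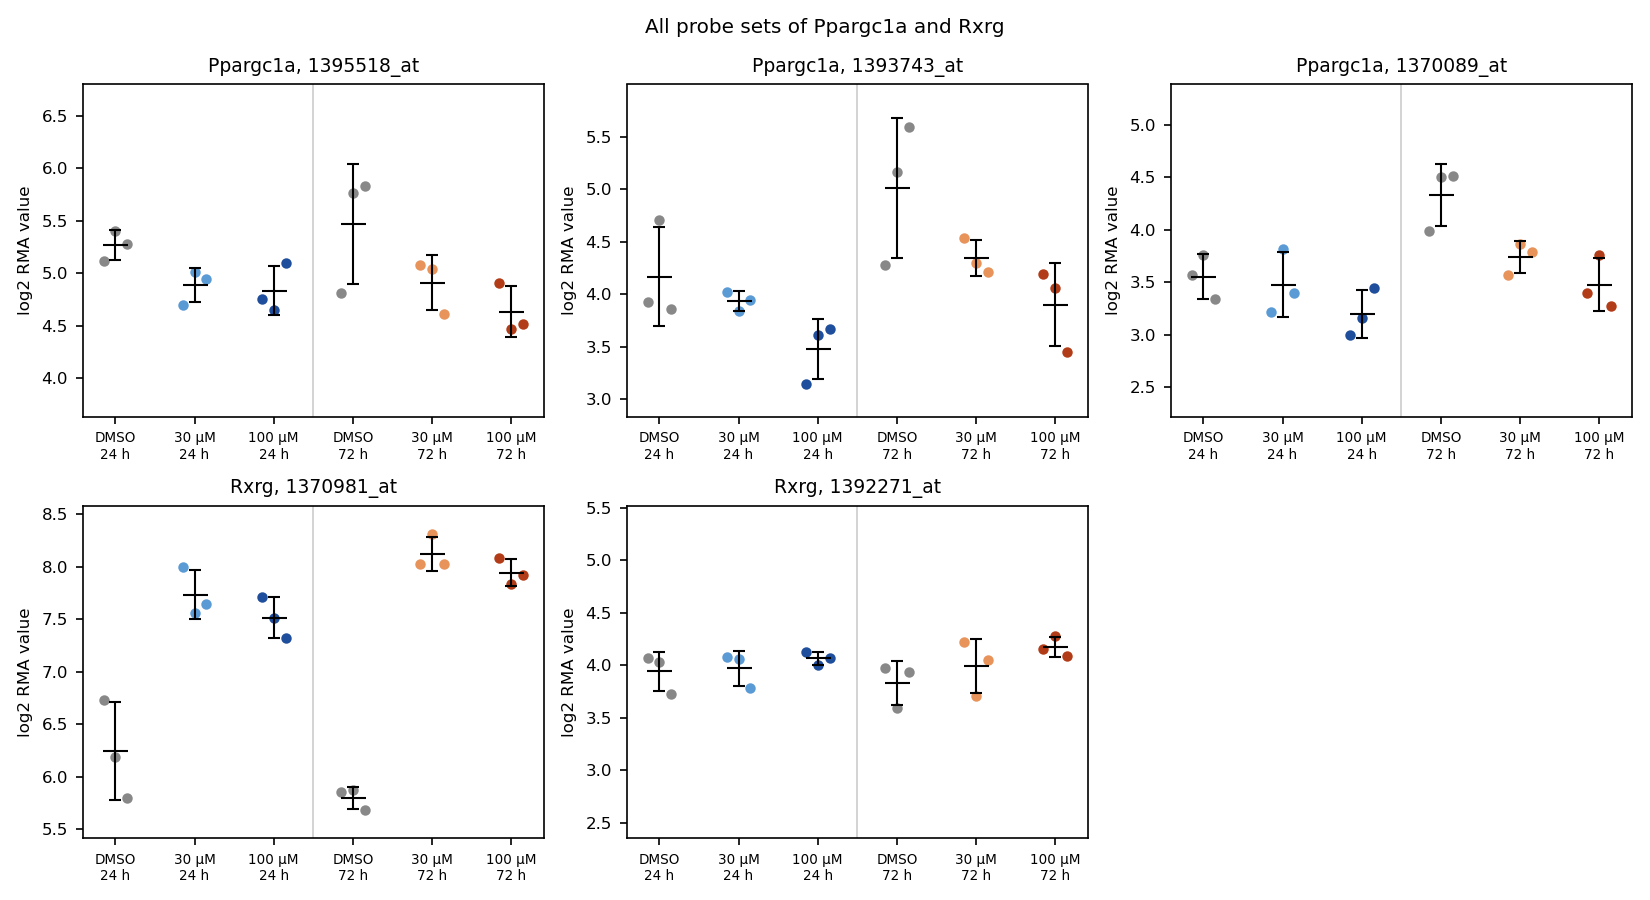
Log2 values (RMA, y axis) in the 3 probe sets of Ppargc1a and the 2 of Rxrg on 18 arrays, by treatment and time (x axis), with points for arrays and bars for the mean ± SD of 3. The Ppargc1a probe sets have their lowest mean with 100 µM at each time, while the Rxrg probe set at 3.59 to 4.28 lacks the step between DMSO and EMD of the other.

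Ppargc1a encodes PGC-1α, the coactivator that fasting and glucagon induce in liver. Its values in probe set 1395518_at at 24 h were 5.12, 5.40 and 5.28 with DMSO, 4.70, 5.01 and 4.94 with 30 µM, and 4.75, 4.65 and 5.10 with 100 µM. All 6 EMD arrays at 24 h lay below all 3 DMSO arrays, but the differences of -0.38 ± 0.22 and -0.43 ± 0.22 did not pass the test (adjusted p = 0.42 and 0.35, limma). At 72 h the values were 4.81, 5.76 and 5.83 with DMSO, 5.08, 5.04 and 4.61 with 30 µM, and 4.91, 4.47 and 4.52 with 100 µM. DMSO replicate 1 lay among the EMD arrays. The difference was -0.56 ± 0.22 with 30 µM (adjusted p = 0.10, limma), and Ppargc1a fell by 0.83 ± 0.22 on the log2 scale with 100 µM (adjusted p = 0.014, limma). Without DMSO replicate 2 or 3 at 72 h the latter was -0.68 and -0.65 (adjusted p = 0.075 and 0.07, limma). Without EMD replicate 2 or 3 it was -0.75 and -0.77 (adjusted p = 0.061 and 0.059, limma). Without DMSO replicate 1, by contrast, the difference with 30 µM was -0.88 (adjusted p = 0.002, limma).

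The other Ppargc1a probe sets moved the same way. In 1370089_at the values at 72 h were 3.99, 4.50 and 4.51 with DMSO, 3.57, 3.87 and 3.79 with 30 µM, and 3.40, 3.76 and 3.28 with 100 µM, with no overlap of either dose with DMSO. The falls were 0.59 ± 0.18 (adjusted p = 0.034, limma; log2 difference -0.59) and 0.86 ± 0.18 (adjusted p = 0.0032, limma; log2 difference -0.86). In 1393743_at the difference was -0.66 ± 0.28 with 30 µM (adjusted p = 0.13, limma) and -1.12 ± 0.28 with 100 µM (adjusted p = 0.011, limma). All 3 probe sets thus fell against DMSO with 100 µM at 72 h, and none passed the test at 24 h. They were dim: 1395518_at lay above the array median on 6 of 18 arrays, 1393743_at on 2 and 1370089_at on 0. In DMSO cultures over time both others rose, by 0.85 ± 0.28 (1393743_at, adjusted p = 0.042, limma) and 0.78 ± 0.18 (1370089_at, adjusted p = 0.0064, limma), where 1395518_at had a difference of 0.20 ± 0.22 (adjusted p = 0.56, limma). Without DMSO replicate 1 at 72 h the latter was 0.53 (adjusted p = 0.042, limma). In cultures with 100 µM the differences over time were 0.42 ± 0.28 (1393743_at), 0.28 ± 0.18 (1370089_at) and -0.20 ± 0.22 (1395518_at). None of these passed the test.

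Ppargc1b encodes PGC-1β, which like PGC-1α drives mitochondrial genes and which is also tied to fat synthesis in liver. In probe set 1392715_at its values at 24 h were 4.93, 5.36 and 5.40 with DMSO, 5.68, 5.62 and 5.75 with 30 µM, and 5.49, 5.52 and 5.45 with 100 µM. At 72 h they were 4.94, 5.36 and 5.54 with DMSO, 6.13, 5.95 and 5.99 with 30 µM, and 5.98, 5.76 and 6.69 with 100 µM. At each time every EMD array lay above every DMSO array, so the direction was the opposite of Ppargc1a. The differences at 24 h were 0.45 ± 0.19 and 0.25 ± 0.19 (adjusted p = 0.24 and 0.60, limma). At 72 h Ppargc1b rose by 0.74 ± 0.19 with 30 µM (adjusted p = 0.012, limma) and by 0.86 ± 0.19 with 100 µM (adjusted p = 0.0045, limma). Without DMSO replicate 1 at 72 h the value with 30 µM was 0.57 (adjusted p = 0.072, limma). With only the 6 arrays compared in the fit, the values of Ppargc1b, Ppargc1a and Pparg with 100 µM at 72 h had adjusted p of 0.076, 0.10 and 0.13 (limma).

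Ppargc1b was also the only 1 of the 8 genes to rise over time in EMD cultures, by 0.66 ± 0.19 between 24 and 72 h with 100 µM (adjusted p = 0.033, limma), where 12.4% of all probe sets passed. Without replicate 3 of 100 µM at 72 h, the highest array of all 18 at 6.69, it was 0.39 (adjusted p = 0.16, limma). Without any 1 array of 100 µM at 24 h it lay between 0.64 and 0.67 (adjusted p = 0.071 to 0.096, limma). With 30 µM 0 of the 8 genes passed over time and 1, Rxrg, had an unadjusted p under 0.05 (limma), against 13.6% of all probe sets that passed and 26% at that unadjusted level. In DMSO cultures 2 of the 8, Ppara and Rxrb, passed and both fell, and 21.7% of all probe sets passed.

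Between the doses 0 of the 8 genes passed limma's test at either time, and 0 had an unadjusted p under 0.05. At 24 h 0% of all probe sets passed between 100 and 30 µM, with 1421 at an unadjusted p under 0.05, and at 72 h 3.1% passed. The intervals allow sizeable differences. For Rxrg 100 µM minus 30 µM was -0.22 (95% interval -0.60 to 0.16) at 24 h and -0.18 (-0.57 to 0.20) at 72 h. For Ppargc1a at 72 h it was -0.27 (-0.74 to 0.19), and for Ppargc1b 0.12 (-0.29 to 0.52).

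With arrays not paired, the response to EMD differed between 72 and 24 h past the threshold in 0 of the 8 genes (limma, either dose). At an unadjusted p under 0.05, 1 gene differed with 30 µM (Rxrg) and 3 with 100 µM (Rxrb, Rxrg and Ppargc1b), against 12.6% and 11.6% of all probe sets at that level. Of all probe sets 0.941% passed this test with 30 µM and 0.693% with 100 µM. The difference was 0.61 ± 0.27 for Ppargc1b with 100 µM (adjusted p = 0.40, limma) and 0.26 ± 0.12 for Rxrb (adjusted p = 0.42, limma). With replicate number added to the fit, Rxrg passed with 30 µM (0.83, adjusted p = 0.036, limma) and with 100 µM (0.87, adjusted p = 0.04, limma).

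The gene lists around these receptors were drawn from known roles, but with earlier results of these data known, so their counts are a description. Each gene was read through its main probe set. Of all probe sets, 3.35% and 3.06% were called higher at 24 h with 30 and 100 µM, and 7.88% and 7.42% at 72 h. Called lower were 2.01% and 2.95% at 24 h and 9.22% and 9.68% at 72 h. Of 19 measured PPAR target genes of fatty acid oxidation, 18 rose in each of the 4 comparisons with DMSO, and the other, Fgf21, a liver hormone of fasting named here after its values were seen, fell with 100 µM at 72 h (-1.36 ± 0.30, adjusted p = 0.0045, limma). Its other differences were 0.74, 0.46 and 0.40 and did not pass. Acot1, an acyl-CoA thioesterase, rose by 8.58 to 8.72, and Ehhadh, the peroxisomal bifunctional enzyme, by 5.30 to 7.34. Pdk4, which shuts pyruvate out of oxidation, rose by 4.40 to 6.24. The median change of the list was 3.17 and 3.23 at 24 h with 30 and 100 µM, and 2.58 and 2.13 at 72 h, against -0.03 to 0.02 over all probe sets. Ppara itself did not pass the test in these comparisons. Its differences at 72 h were 0.53 and 0.50, and both passed without DMSO replicate 3 at 72 h. The part of Ppara levels in these rises was not tested.

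Of 13 PPARγ targets of fat cells, 3 rose at 24 h with either dose, 7 at 72 h with 30 µM and 3 at 72 h with 100 µM, and none fell. Aqp7, the glycerol channel of fat cells, rose by 3.94 to 6.33, Cd36, the fatty acid translocase, by 2.73 to 5.59, and Cidea, a lipid droplet protein, by 1.20 to 1.92. The study counts Cd36 among the genes of the PPARα pathway too. EMD is an agonist of both receptors, and through which of them these genes rose was not tested. The median changes of the list were 0.28, 0.18, 0.78 and 0.40. Of 6 adipocyte markers 4 lay under the array median on all arrays, among them Adipoq, adiponectin, and Lep, leptin. Cidec lay above it on all 18 arrays, at 9.481 to 10.72. Of the 6, Cfd alone rose, with 30 µM at 72 h.

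Of 13 further receptors that pair with RXR, 3 and 2 rose at 24 h with 30 and 100 µM, and 6 and 2 at 72 h, while Rarb alone fell. Rarb, the retinoic acid receptor β and itself a retinoic acid target, fell in all 4 comparisons, with log2 differences of -1.35 and -1.13 at 24 h and -1.82 and -1.76 at 72 h. Nr1h4, the bile acid receptor FXR, rose by 0.54 to 1.34, and Nr1h3, the oxysterol receptor LXRα, by 0.51 to 0.77. The median of the list lay between -0.15 and 0.21. Nr1i3, the xenobiotic receptor CAR, rose with 30 µM at 72 h by 1.92 ± 0.43 (adjusted p = 0.0048, limma) and had a difference of 0.64 ± 0.43 with 100 µM. Of 15 retinoid enzymes and binding proteins, 2, 1, 3 and 4 rose and 1 fell, Rdh16 with 100 µM at 72 h. Aldh1a1, which makes retinoic acid, rose by 1.37 to 2.52.

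Beside the PGC-1 genes, 16 other coactivators were measured, and 1, 1, 2 and 1 rose in the 4 comparisons, with list medians between -0.08 and -0.01. Ncoa1, the steroid receptor coactivator SRC-1, rose in each, by 0.50 to 0.94. Pprc1, the third relative of the PGC-1 family, fell at 72 h, with differences of -0.56 ± 0.17 and -0.61 ± 0.17. The 3 relatives thus did not move as 1, with Ppargc1b higher and Ppargc1a and Pprc1 lower with 100 µM at 72 h. Of 10 corepressors 1 and 1 rose at 24 h and 3 and 3 at 72 h, where 2 and 1 fell. Sirt3, a deacetylase that sits in mitochondria and is not a corepressor in the strict sense, rose in all 4, by 1.26 to 1.78. It was the only gene of the list to rise at 24 h. Ncor1, the nuclear receptor corepressor, rose at 72 h by 0.33 ± 0.09 with 30 µM and 0.35 ± 0.09 with 100 µM (adjusted p = 0.018 and 0.014, limma). Tbl1xr1 rose at 72 h by 0.95 and 0.84. Gps2 fell at 72 h, with differences of -0.40 and -0.45, and Tbl1x fell with 30 µM at 72 h, with a difference of -0.46.

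Among 11 orphan receptors and factors that PGC-1 coactivates, 1, 2, 2 and 4 rose and none fell. Esrrg, the estrogen-related receptor γ, rose by 2.24 and 1.60 at 24 h with 30 and 100 µM, and by 1.60 and 0.84 at 72 h. Esrra, the estrogen-related receptor α, rose at 72 h by 0.32 and 0.70. Of 16 mitochondrial and gluconeogenic genes known as PGC-1 targets, 4, 3, 9 and 5 rose and none fell. Ucp2, a carrier of the inner mitochondrial membrane, rose by 2.28 to 2.99, Cat, the peroxisomal catalase, by 0.98 to 1.33, and Tfam, the mitochondrial transcription factor A, by 1.03 and 0.89 at 72 h. Cat and Ucp2 are known as PPAR targets too. The median changes of the list were 0.17, 0.14, 0.41 and 0.26. Of 16 kinases and other modifiers of PPAR and PGC-1, 0, 0, 1 and 1 rose and 1, 1, 3 and 4 fell, among them Prkab1, a β subunit of AMP kinase, with differences between -0.54 and -0.67.

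**Figure D4:**
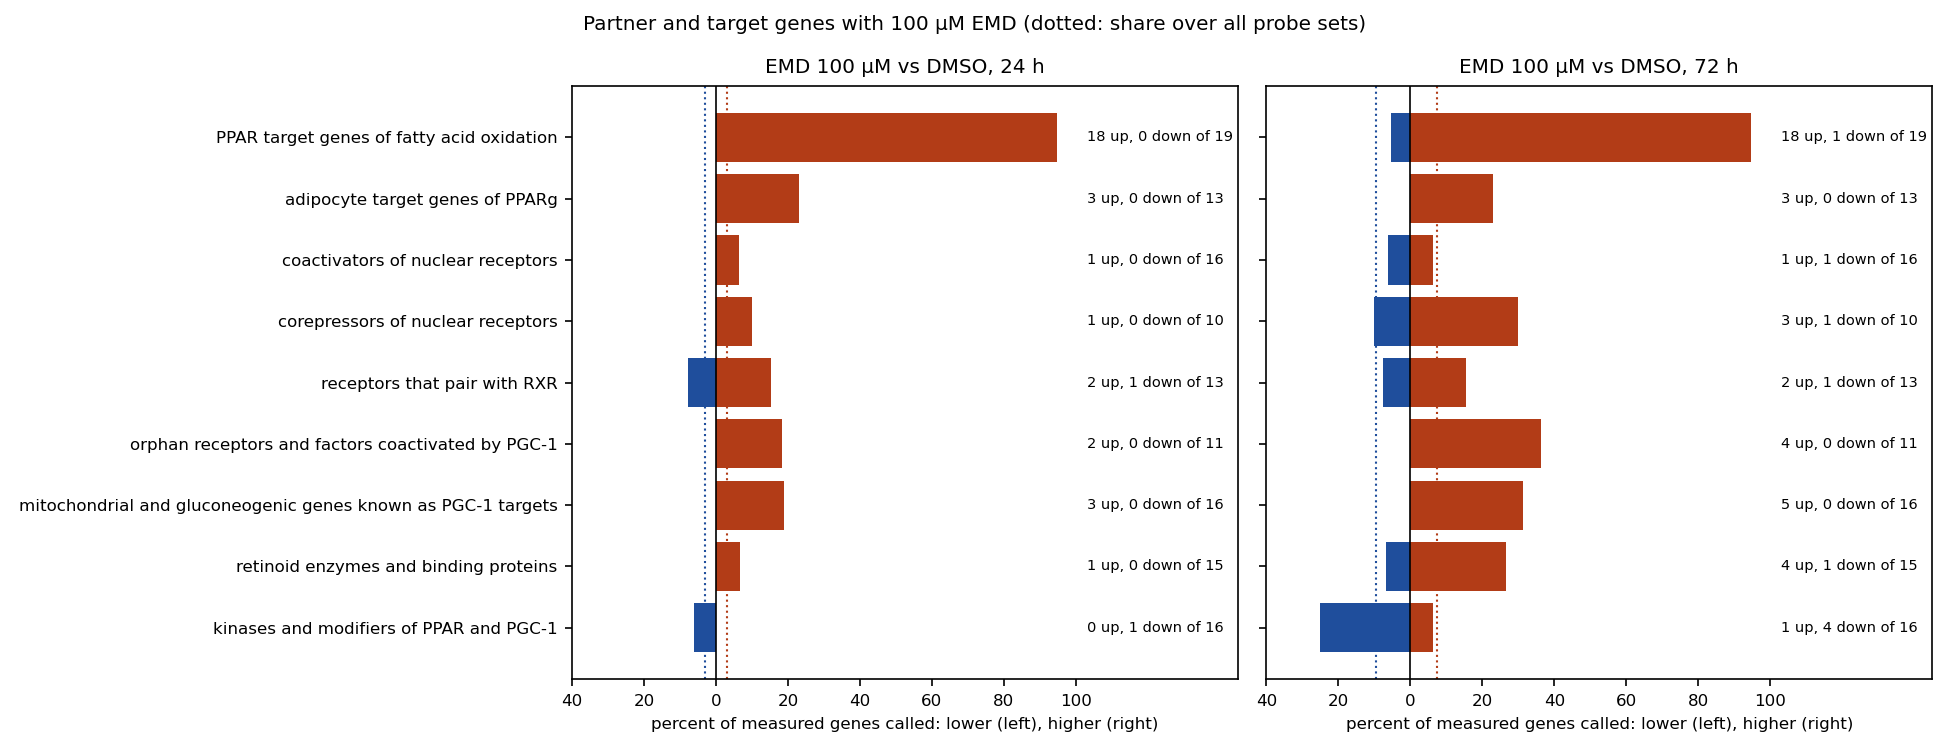
Percent of the measured genes of each list (y axis) that passed the test higher (right) or lower (left) with 100 µM EMD against DMSO at 24 and 72 h (x axis). Dotted lines give the share of all probe sets called in that direction (3.06% and 2.95% at 24 h, 7.42% and 9.68% at 72 h), and 18 of 19 fatty acid oxidation genes rose at both times.

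The genes most like each receptor gene or coactivator gene over the 18 arrays were found among 14216 others by Pearson r of log2 values, as a description in which the points share their groups and normalization. For Rxrg they were Slc25a42, a mitochondrial carrier of coenzyme A (r = 0.965), Paqr7 (r = 0.953) and Rnf125 (r = 0.951). For Ppargc1b they were Gfm2 (r = 0.877), Ndufb6, a subunit of respiratory complex I (r = 0.867), and Nr1h4 (r = 0.864). Ppargc1a was most like Id4 (r = 0.905), Fmo1 (r = 0.883) and Hoga1 (r = 0.882). Pparg was most like Ccnq (r = 0.97), Rdh14 (r = 0.931) and Sdhaf3 (r = 0.923). Ppara was most like Pcsk6 (r = 0.846), Sds, serine dehydratase (r = 0.826), and Arhgap20 (r = 0.796), and Rxrb was most like Ceacam15l1 (r = 0.808), Dhx38 (r = 0.794) and Kcnk2 (r = 0.783).

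Some markers of the cells passed the test with EMD as well, and their counts are to be read against the shares of all probe sets given above. All 11 measured hepatocyte markers lay above the array median on every array, among them Alb, albumin, and 2 and 1 of them fell at 24 h with 30 and 100 µM and 7 and 6 at 72 h. The log2 of their summed level was 16.73 to 16.88 with DMSO at 72 h and 16.11 to 16.28 with 100 µM. Of 11 macrophage markers, 1 fell at 24 h and 2 at 72 h with each dose. Their summed level at 24 h was 11.29 to 11.74 with DMSO, 10.55 to 10.86 with 30 µM and 10.57 to 10.88 with 100 µM. At 72 h it was 10.58 to 11.31 with DMSO and 9.806 to 9.897 with 100 µM. Csf1r, Cd163, Ptprc and Tyrobp lay under the array median on all arrays, and Cd68, Cd14, C1qb and Lyz2 above it on all 18. Of 12 stellate cell and fibroblast markers 3 and 1 fell at 72 h, of 8 endothelial markers Eng alone rose, and of 7 cholangiocyte markers Epcam rose with 30 µM at 24 h and Prom1 fell at 72 h. The difference between 3′ and 5′ probe sets of actin, a sign of RNA quality, was 0.637 to 0.733 with DMSO at 72 h, 0.819 to 0.894 with EMD at 72 h and 1.22 to 1.39 at 24 h. That of hexokinase at 24 h was 1.27 to 1.51 with DMSO, 1.55 to 1.68 with 30 µM and 1.39 to 1.59 with 100 µM. At 72 h it was 1.50 to 1.63, 1.35 to 1.62 and 1.57 to 1.79 in the same order. That of GAPDH lay between 0.118 and 0.30 on all arrays. The part of these values in the changes of the 8 genes was not tested, and in such bulk RNA fewer cells of a type and less RNA per cell cannot be told apart.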

How the data were processed

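RNA of rat hepatocyte cultures was hybridised to 18 Affymetrix Rat Genome arrays. The authors deposited log2 expression estimates made with RMA, which subtracts background, equalises the arrays and merges each probe set into 1 value, so small values are compressed and shifts common to all genes are removed. For RMA no version is stated in the labels or methods. Groups came from the labels. The table's 31099 probe sets include 57 controls, and the other 31042 were fitted. By the platform annotation 20826 have 1 symbol, 436 several and 9780 none, and 20758 of the first matched the GRCr8 gene table. RMA gives no detection call.

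The values were fitted as deposited with limma 3.58.1 in R 4.3.3, with 6 groups in 1 fit, eBayes and two-sided tests in 12 comparisons, adjusted by Benjamini-Hochberg with a threshold of 0.05. The script was tested on simulated data. The text names all 8 members with all probe sets, up to 4 called genes of largest change per list (16 lists, 7 of them cell markers) and the 3 genes most like each member called anywhere. Members and lists were chosen with earlier results of these data known. Alternatives were cyclic loess, equal medians, only the arrays compared, trend and robust moderation, array weights, a filter on dim probe sets, means over probe sets, a replicate block and leaving out each array. The number of arrays limits the precision.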

Additional observations from a re-analysis of the deposited data

How the results depend on the processing

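The 4 rises of Rxrg against DMSO kept their direction and their side of the threshold under every alternative run. The number of the 8 genes called moved by over 1.5 times in other cases. With array weights it was 4 with 30 µM at 72 h, 1 over time in DMSO, 1 over time with 30 µM, 2 over time with 100 µM and 1 for the 100 µM response between times. These weights added Ppara and Ppargc1a with 30 µM at 72 h, and Ppara with 100 µM at 72 h (0.60 ± 0.18, adjusted p = 0.021, limma). With only the arrays compared, the number of genes called was 1 with 100 µM at 72 h (Rxrg), 0 over time in DMSO, 1 over time with 30 µM (Ppargc1b) and 0 over time with 100 µM. Over time in DMSO it was 1 (Ppara) with cyclic loess, equal array medians, or trend and robust moderation, and 4 with the mean of the probe sets of a gene. The Pparg rise with 100 µM at 72 h was lost with cyclic loess, equal medians, and trend and robust moderation (adjusted p = 0.059, 0.055 and 0.054, limma). The filter on dim probe sets left out Ppargc1a and changed no other call. Over all probe sets, outside the filter, the mean of probe sets and left-out arrays, counts called ranged from 3305 to 8192 with 100 µM at 72 h (5308 as reported), from 141 to 3336 between doses at 72 h (963), from 3997 to 8185 over time in DMSO (6738), from 2315 to 6849 over time with 100 µM (3843), from 227 to 924 (292) and from 76 to 1090 (215) for the responses with 30 and 100 µM. The cause was not tested.

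The main fit did not pair arrays by replicate number, since neither methods nor labels tie a number to an animal. Arrays of the same number were nonetheless alike in their deviations from group means. Of 18 pairs with the same number at a time, 16 correlated over 0.1 (median 0.371, range 0.00577 to 0.63, against a median of -0.217 for different numbers). Of 18 arrays, 17 were closest to their own number. The unpaired fit counts this likeness as spread. With the replicate block, 4 genes were called over time in DMSO (Ppara, Ppard, Rxrb and Rxrg) and 1, Rxrg, for each response between times (0.83, adjusted p = 0.036, and 0.87, adjusted p = 0.04, limma). Pparg with 30 µM at 72 h (0.49, adjusted p = 0.019, limma) and Rxra over both doses and times (0.23, adjusted p = 0.03, limma) were called too.

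With each array left out in turn, the number of genes called ranged from 2 to 4 with 100 µM at 72 h, from 2 to 3 with 30 µM at 72 h, from 0 to 2 over time in DMSO, from 0 to 1 over time with 100 µM, from 0 to 1 for either response and from 3 to 5 over both doses and times. Reversals were confined, among the settings run, to changes that had not passed the test. With cyclic loess the Rxra dose difference at 24 h was 0. With array weights the dose differences at 24 h were 0.01 for Ppard, -0.03 for Pparg and 0.04 for Rxra, the change over time with 30 µM was -0.02 for Ppargc1a, and the 100 µM response difference was -0.06 for Rxra. With the mean of probe sets Ppard with 30 µM at 72 h was 0.05 and Ppargc1a over time with 100 µM was 0.16.

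Leaving out an array turned further small log2 differences. Against DMSO, Ppara ranged from -0.14 to 0.09 with 30 µM and from -0.18 to 0.04 with 100 µM at 24 h, Ppard from -0.17 to 0.12 with 30 µM at 72 h, and Rxrb from -0.01 to 0.04 over all. Between doses at 24 h the ranges were -0.14 to 0.03 for Ppara, -0.10 to 0.11 for Ppard, -0.18 to 0.17 for Pparg, -0.18 to 0.04 for Ppargc1a and -0.12 to 0.15 for Rxra. At 72 h they were -0.10 to 0.01 for Ppara, -0.05 to 0.25 for Ppard and -0.15 to 0.31 for Ppargc1b. Over time in DMSO they were -0.26 to 0.12 for Pparg, -0.10 to 0.22 for Ppargc1b and -0.07 to 0.25 for Rxra. With 30 µM they were -0.15 to 0.02 for Ppara, -0.09 to 0.33 for Pparg, -0.06 to 0.18 for Ppargc1a and -0.06 to 0.01 for Rxrb, and with 100 µM -0.11 to 0.01 for Ppara, -0.08 to 0.18 for Rxra and -0.07 to 0.06 for Rxrb. For the 30 µM response between times they were -0.01 to 0.33 for Ppard, -0.02 to 0.40 for Pparg, -0.50 to 0.01 for Ppargc1a and -0.10 to 0.22 for Rxra, and for 100 µM -0.17 to 0.15 for Rxra.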
